A study of Mus musculus with 8 samples.

Results

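The Ifitm genes and Bst2 encode membrane proteins that hinder virus entry and virus release, and their transcripts were counted in mouse fibroblasts that had or had not met interferon-beta (IFN-beta). The members were named by gene symbol: Ifitm1, Ifitm2, Ifitm3, Ifitm5, Ifitm6, Ifitm7, Ifitm10 and Bst2, 8 of the 24015 gene symbols counted. The cells were wild type mouse embryonic fibroblasts (MEFs) of C57bl/6 background, taken from E12.5 embryos and used at passages 15 to 18. Such cells are cultured from the embryo's connective tissue. The IFN-beta group held 2 RNA-seq libraries, from cells kept for 6 h in recombinant murine IFN-beta at 100 units/mL. The untreated group held 2 libraries from cells of the same strain, genotype and passages, and the labels name no vehicle. The series concerns a mouse line with HA-tagged histone H3.3 and also lists 4 chromatin samples, which were not analysed here. Whether the replicates were separate cultures is not stated, so p-values measure the spread between these libraries only, which may be technical.

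Ifitm proteins are small membrane proteins of the cell surface and the endosome. They make it harder for the envelope of an entering virus to fuse with the host membrane, and Ifitm3 acts mainly in endosomes. Bst2, or tetherin, works at the other end of the infection: it spans the membrane at one end, carries a lipid (GPI) anchor at the other, and holds budding virions on the cell that made them. Type I interferon induces such genes through ISGF3, a complex of STAT and IRF proteins that binds interferon-stimulated response elements (ISRE) in promoters.

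The promoter stretches of Bst2, Ifitm3 and Ifitm2 are shown because these were the 3 members with enough reads to test, and also the members whose promoter window held the ISRE core, which is GAAA, any 2 bases, and GAAA. Each is read 5′ to 3′ on the minus strand of the RefSeq build GRCm38.p6, at chr8:71537532-71537632 for Bst2 (positions -160 to -60 from the RefSeq transcript start), chr7:141010715-141010814 for Ifitm3 (positions -70 to 30) and chr7:140955962-140956061 for Ifitm2 (positions -100 to -1). Capitals mark bases that match the ISRE core.
Bst2: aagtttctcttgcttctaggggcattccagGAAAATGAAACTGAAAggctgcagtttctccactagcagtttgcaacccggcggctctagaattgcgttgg
Ifitm3: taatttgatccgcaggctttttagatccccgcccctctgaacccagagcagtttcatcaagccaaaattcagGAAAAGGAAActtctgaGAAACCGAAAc
Ifitm2: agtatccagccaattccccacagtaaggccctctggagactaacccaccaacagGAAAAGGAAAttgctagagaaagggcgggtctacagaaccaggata

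RefSeq gave 10 promoter windows for the 8 members, each from 250 bases before to 50 bases after a transcript start, with 3 windows for Ifitm10 and 1 for every other member. In Bst2, matches to the ISRE core at -130 to -121 and at -124 to -115 overlapped. Ifitm3 also had a pair of matches, at positions 3 to 12 and 20 to 29, just inside the transcript, and Ifitm2 had a single match at -46 to -37. The first Ifitm3 match and the Ifitm2 match were the last bases of a run of 13 bases that the windows of both genes share. With both strands searched, the ISRE core was found in 3.44% of all 32851 windows. The core of the gamma activated site, TTCNNNGAA, to which STAT dimers bind, was found in the windows of Bst2 (-136 to -128), Ifitm3 (14 to 22) and Ifitm6 (-10 to -2), overlapping an ISRE match in Bst2 and in Ifitm3. It occurred in 8.30% of all windows. A match describes letters and is not evidence of a bound site.

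**Figure D1:**
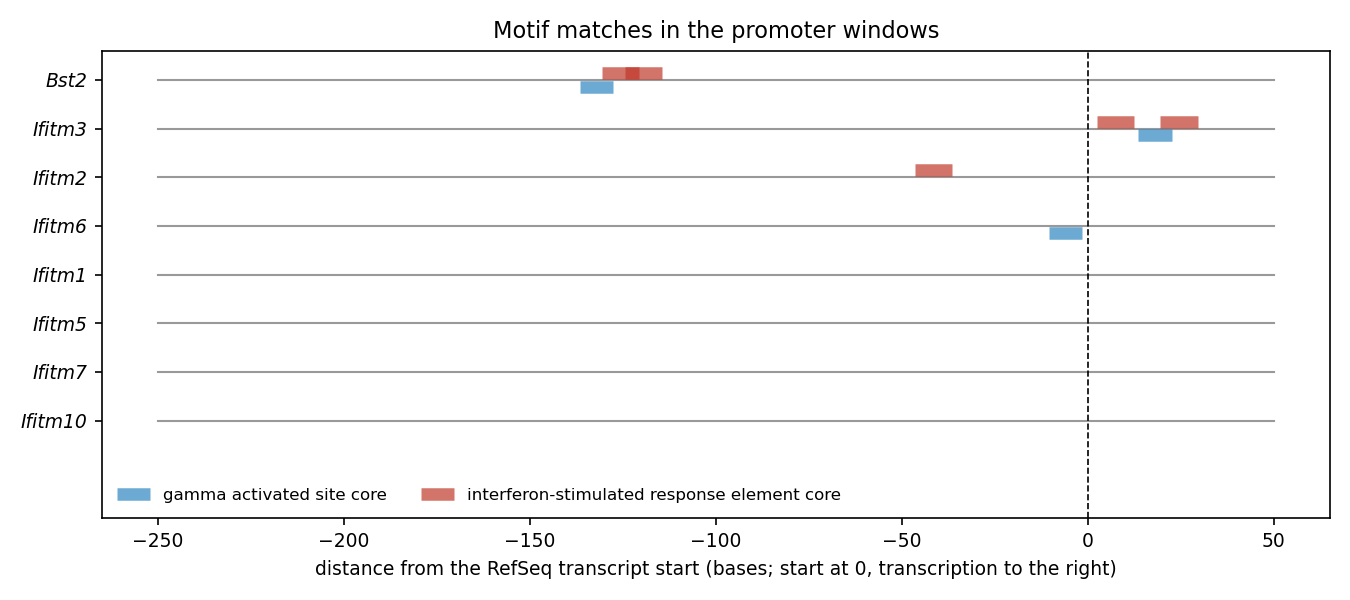
Positions of motif matches in the promoter windows of the 8 members (rows), in bases from the RefSeq transcript start. Red bars above a line are ISRE cores and blue bars below it gamma activated site cores, and red bars stand in the rows of Bst2, Ifitm3 and Ifitm2.

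The libraries held 18901845 and 20714161 gene counts after IFN-beta, against 18528685 and 24817342 untreated. The untreated pair differed more than the treated pair, with a chi-square per gene of 32.3 against 11.5, and between groups it ran from 96.1 to 154.5. All 14 fibroblast markers listed had enough reads to test. At an unadjusted p below 0.05, 4 were higher and 1 lower, against 9.6% and 8.56% of all tested genes (edgeR). At an adjusted p below 0.05, 1 was called higher, against 4.73% of all tested genes. That gene was Twist1 (log2 fold change 0.72, adjusted p = 0.0437 by edgeR and 0.00728 by DESeq2). Its edgeR call was lost with total library size (adjusted p = 0.0807) and with upper quartile scaling (0.0730). Without IFN-beta replicate 1 the call was also lost, at a log2 fold change of 0.71.

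Bst2 and Ifitm3 rose strongly after 6 h of IFN-beta, while Ifitm2, the other Ifitm gene with many reads, did not pass the test. The remaining Ifitm genes gave between 0 and 17 reads per library. Levels below are CPM, read counts scaled to a common library size and not to gene length. Ratios and shares of reads between genes are therefore compared between groups and are not proportions of transcripts. Of 12128 genes tested, 4.73% were called higher, 0.495% lower and 5.23% in either direction at a Benjamini-Hochberg adjusted p below 0.05 (edgeR quasi-likelihood test). Among the 8 members, 3 were tested, all 3 with CPM above the filter in every library, and 2 of them rose.

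Bst2 was at 136 and 137 CPM (2433 and 2722 reads) in the IFN-beta libraries, against 5.98 and 5.84 CPM (115 and 154 reads) in the untreated ones. The replicates of each group lay close together and the groups did not overlap, as for 23.9% of tested genes on the higher side and 26.8% on the lower. Its mean was 137 ± 0.561 CPM with IFN-beta and 5.91 ± 0.0974 CPM untreated (SD, n = 2 each), a fold change of 23.1 with a 95% interval from 18.4 to 29.1 (log2 fold change 4.53 ± 0.15 SE, edgeR adjusted p = 2.12e-08). In the order of log2 fold changes Bst2 stood at rank 118, so that 0.965% of the tested genes had a larger one. In bulk RNA, a change in the number of expressing cells and a change in transcripts per cell cannot be told apart.

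Ifitm3 had 211 and 209.8 CPM (3765 and 4163 reads) with IFN-beta, against 37.8 and 32.2 CPM (727 and 849 reads) untreated. Both treated libraries were above both untreated ones. The fold change was 6.02 (95% interval 4.86 to 7.45, log2 fold change 2.59 ± 0.14 SE, edgeR adjusted p = 7.16e-07). It ranked 197 among the log2 fold changes, with 1.62% of genes above it.

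Ifitm2 had 87.7 and 88.9 CPM (1565 and 1765 reads) with IFN-beta, and 90.3 and 68.5 CPM (1737 and 1807 reads) untreated. Both treated values lay between the untreated ones. The fold change was 1.11 with a 95% interval from 0.880 to 1.41 (log2 fold change 0.15 ± 0.15 SE, edgeR adjusted p = 0.634), so the interval bounds a rise of Ifitm2 at 1.41-fold, below the lower bounds for Ifitm3 and Bst2. The value rests on the untreated libraries: without untreated replicate 1 the log2 fold change was 0.39 and without untreated replicate 2 it was -0.031. Fits with 1 untreated library take their spread from the IFN-beta pair, so they do not weigh the difference between the untreated libraries.

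**Figure D2:**
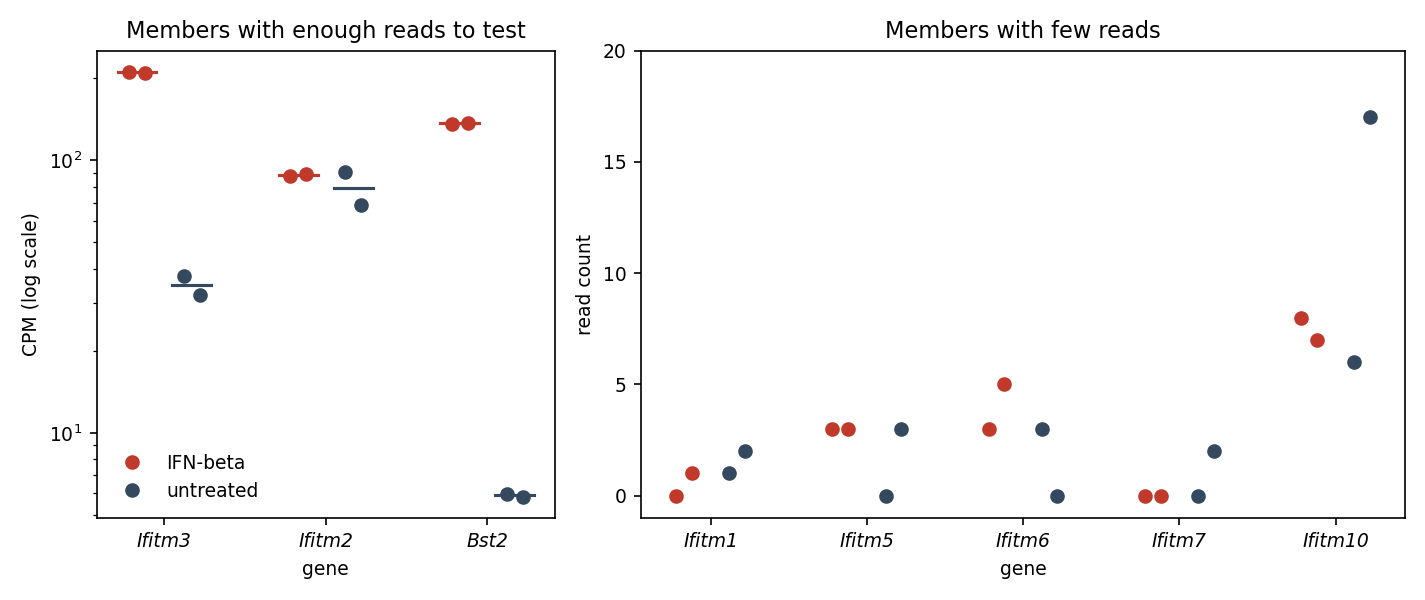
Values of every member in each library, IFN-beta (red) left of untreated (dark blue). Left, CPM on a log axis for the members with enough reads to test, with bars at the group means of 2 libraries: Ifitm3 and Bst2 separate by group and Ifitm2 does not. Right, read counts of the other members, from 0 to 17.

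**Figure D3:**
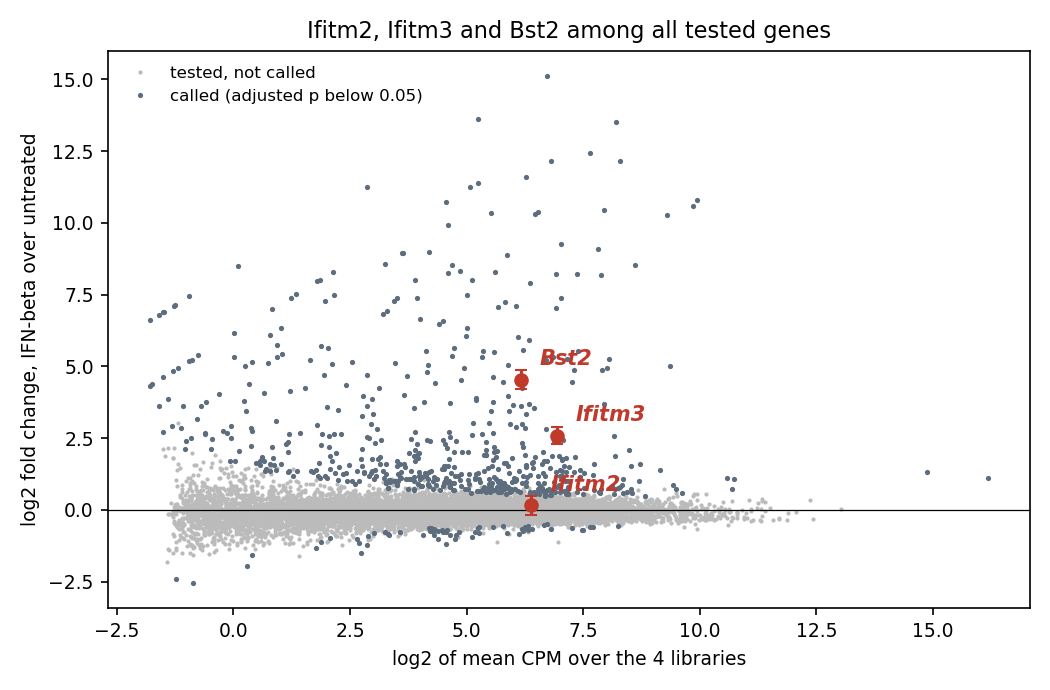
Each point is a tested gene, with the log2 of its mean CPM over the 4 libraries on the x axis and the log2 fold change of IFN-beta over untreated on the y axis. Bst2 (4.53) and Ifitm3 (2.59) lie among the called genes and Ifitm2 (0.15) in the band of genes not called. Bars are 95% intervals, and fitted values of genes with almost no untreated reads depend on the prior count.

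The changed balance of Ifitm2 and Ifitm3 could be read within each library, where scaling plays no part. The Ifitm2 count was 0.416 and 0.424 times the Ifitm3 count in the IFN-beta libraries, against 2.39 and 2.13 times in the untreated ones. Ifitm3 thus gave 70.6% (95% exact binomial interval 69.4 to 71.9) and 70.2% (69.0 to 71.4) of the reads of both genes after IFN-beta, and 29.5% (27.7 to 31.3) and 32.0% (30.2 to 33.8) untreated. Such intervals cover counting error only, and the shares are of reads not scaled to gene length. The log2 ratio of Ifitm2 to Ifitm3 differed by -2.43 between the groups. The log2 ratio of Bst2 was 1.94 higher to Ifitm3 and 4.37 higher to Ifitm2 with IFN-beta. In each of these ratios the groups did not overlap, but an exact two-sided permutation test of 2 libraries against 2 cannot go below p = 0.333, the value each ratio gave. Together Ifitm2 and Ifitm3 summed to 299 CPM in both IFN-beta libraries, against 128 and 101 CPM untreated, 2.61 times the untreated mean. They supplied 99.7% of all Ifitm reads in each treated library, against 99.6% and 99.1% in the untreated ones. Reads that match several places in the genome stand in a summary line of the deposited tables and are not counted to a gene. Such records were 34.9% and 37.2% of the treated libraries and 33.0% and 29.8% of the untreated ones, so the split among related Ifitm sequences is uncertain to the extent that they share reads.

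**Figure D4:**
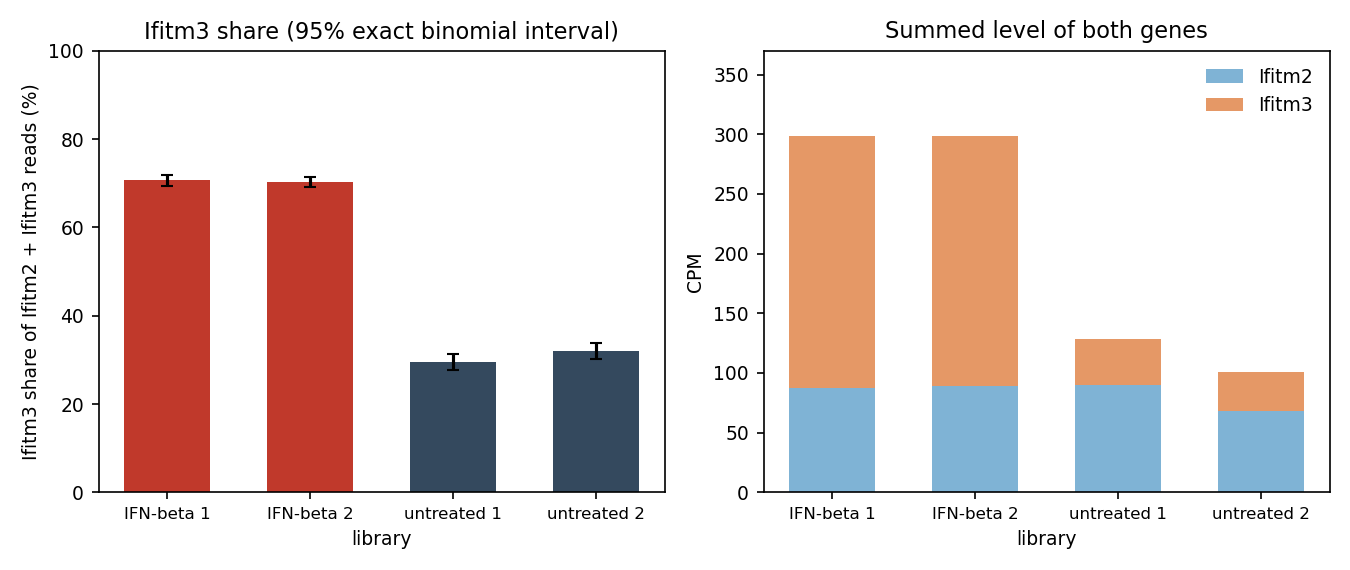
Left, share of Ifitm3 in the reads of Ifitm2 and Ifitm3 per library (percent), with 95% exact binomial intervals: near 70% in both IFN-beta libraries and near 30% in both untreated ones. Right, the summed level of both genes in CPM, where the Ifitm3 segment is taller after IFN-beta and the Ifitm2 segments overlap in height between the groups.

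The other 5 members missed the expression filter, which asked for about 0.505 CPM in at least 2 libraries. Ifitm1, a family member also known from germ cells, had 0 and 1 reads with IFN-beta and 1 and 2 reads untreated. Ifitm7, which lies on another chromosome, had 0 reads in both IFN-beta libraries and 0 and 2 reads untreated. At this depth neither differed detectably, since 3 reads over a pooled group correspond to 0.0796 CPM with IFN-beta and 0.0658 CPM untreated. RefSeq annotates Ifitm7 as overlapping Bmerb1, and no other member overlaps an annotated gene there.

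Ifitm5, a gene of bone-forming cells, had 3 and 3 reads with IFN-beta and 0 and 3 reads untreated, a ratio of 2.42 with a 95% exact interval from 0.517 to 15.0. Ifitm6 had 3 and 5 reads with IFN-beta and 3 and 0 reads untreated, a ratio of 3.23 (0.775 to 18.9). Ifitm10 was the most read of the low members, with 8 and 7 reads after IFN-beta and 6 and 17 reads untreated, a ratio of 0.789 (0.383 to 1.58). These ratios rest on single untreated libraries: that of Ifitm5 was 1.40 without untreated replicate 1, and those of Ifitm6 and Ifitm10 were 1.36 and 1.28 without untreated replicate 2. Each interval covers counting error only and contains 1, so no direction was detectable. A fit of all genes without the filter gave adjusted p-values from 0.615 to 0.864 for the 5 low members (edgeR).

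Counts in the gene lists that follow are to be read against shares over all tested genes. At an unadjusted p below 0.05, 9.6% of all genes were higher and 8.56% lower (edgeR). DESeq2 called 4.46% of its 13885 genes higher and 0.648% lower. With a library left out, edgeR called 3.75% higher and 0.192% lower (without IFN-beta replicate 1), 4.27% and 0.445% (IFN-beta replicate 2), 6.91% and 1.82% (untreated replicate 1), and 15.3% and 14% (untreated replicate 2).

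Ifitm genes share the CD225 domain with a wider family. In the list of 11 symbols of that family, 7 were found, 5 had no read in any library and Prrt2 had 1 or 2. Only Syndig1, a synapse protein gene, was tested, at 3.60 ± 0.458 CPM with IFN-beta and 7.61 ± 4.01 CPM untreated (SD, n = 2 each, log2 fold change -1.06 ± 0.35 SE, edgeR adjusted p = 0.134). It passed as lower without a count filter (0.00019), and also with either IFN-beta replicate 1 (0.0425) or untreated replicate 2 (3.4e-10) left out. Its log2 fold change was -1.54 in the fit that lacked untreated replicate 2 and -0.39 in the fit that lacked untreated replicate 1.

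The partners and modifiers of Ifitm proteins gave 0 calls among 18 tested genes by edgeR and by DESeq2, with 1 higher at an unadjusted p below 0.05 (9.6% of all genes were) and a median log2 fold change of 0.00, against -0.02 over all tested genes. Zdhhc20, a palmitoyltransferase that modifies Ifitm3, was at 157 ± 4.12 CPM with IFN-beta and 183 ± 5.47 CPM untreated (log2 fold change -0.22, edgeR adjusted p = 0.362). The clathrin adaptor subunit gene Ap2b1 had a log2 fold change of 0.32 (adjusted p = 0.248) and the ATPase gene Vcp 0.24 (adjusted p = 0.373). Without untreated replicate 2 this list had 4 higher calls, Ap2b1 and Vcp among them, and 1 lower, where 15.3% of all genes were called higher and 14% lower.

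Partners and regulators of tetherin likewise gave 0 calls by edgeR among 13 tested genes, with 2 higher at an unadjusted p below 0.05 (against 9.6% of all genes) and a median of 0.06, and 1 higher call by DESeq2. Ezr (ezrin), which links membrane proteins to actin, was at 52.1 ± 11.6 CPM with IFN-beta and 33.2 ± 4.46 CPM untreated (log2 fold change 0.64 ± 0.18 SE, edgeR adjusted p = 0.0771). It passed with DESeq2 (0.0288) and without a count filter (0.0016), and its log2 fold change was 0.40 without IFN-beta replicate 1. Ap1m1, a subunit of the AP-1 sorting adaptor, was at 0.31 and Hgs, an endosomal sorting gene, at 0.30. The list had 1 call without IFN-beta replicate 2 or without untreated replicate 1, and 5 without untreated replicate 2 (against 15.3% of all genes), Ezr, Ap1m1 and Hgs among them.

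Tetherin needs a GPI anchor, and 26 genes of anchor synthesis and attachment were tested. The median log2 fold change was -0.01, with 0 higher and 1 lower calls by edgeR and by DESeq2, and 1 higher and 4 lower genes at an unadjusted p below 0.05 (edgeR), where 9.6% and 8.56% of all genes were higher and lower. Pgap1, which removes an acyl chain from the finished anchor, fell to 7.10 ± 1.57 CPM with IFN-beta, against 13.1 ± 0.845 CPM untreated (SD, n = 2 each, log2 fold change -0.87 ± 0.20 SE, edgeR adjusted p = 0.0363). That call was lost without IFN-beta replicate 1 (adjusted p = 0.493). Pgap2, which acts later on the anchor lipid, was at 0.72 (edgeR adjusted p = 0.0654). It passed without a count filter (0.00675), with the replicate number as a block (0.0348), and with untreated replicate 1 (0.00163) or 2 (0.00586) left out. The synthesis gene Pigp was at -0.49 (adjusted p = 0.177) and passed with no filter on counts (0.0434) or with untreated replicate 2 left out (3.2e-05). The list had 3 higher and 5 lower calls without untreated replicate 2 (against 15.3% and 14% of all genes), and 1 higher call without untreated replicate 1.

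Other factors that act against virus entry or release gave 7 higher calls among 13 tested genes, 53.8% against 4.73% of all tested genes, and 7 by DESeq2. This list was chosen with earlier results of these data known, so its share describes the chosen genes and tests nothing about such factors. The list's median was 0.97. Rsad2 (viperin) had 10090 and 12100 reads with IFN-beta and 2 and 0 untreated, a ratio of 13430 (95% exact interval 3717 to 110900). Exact intervals of such ratios cover counting error in the pooled reads only, not the spread between libraries. Gbp2, a guanylate-binding protein that lowers furin activity in human cells, was at 783 ± 44.2 CPM with IFN-beta and 2.18 ± 1.04 CPM untreated, and the ubiquitin-like modifier Isg15 at 116 ± 2.28 CPM with IFN-beta and 0.265 ± 0.214 CPM untreated (SD, n = 2 each). The edgeR adjusted p was 4.76e-09, 2.02e-08 and 2.12e-08 for these 3 genes in turn. The other calls were Gbp5 (69 and 84 reads with IFN-beta, 0 and 2 untreated, a ratio of 92.6 with an interval from 25.2 to 771), and, by log2 fold change, Ch25h (4.42), which makes an oxysterol that blocks fusion, Ly6e (1.74) and Ncoa7 (0.97). Serinc3 (-0.05) and Serinc5 (-0.32), membrane proteins that impair virion infectivity, did not pass. Without untreated replicate 2 the list also had 2 lower calls (against 14% of all genes).

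**Figure D5:**
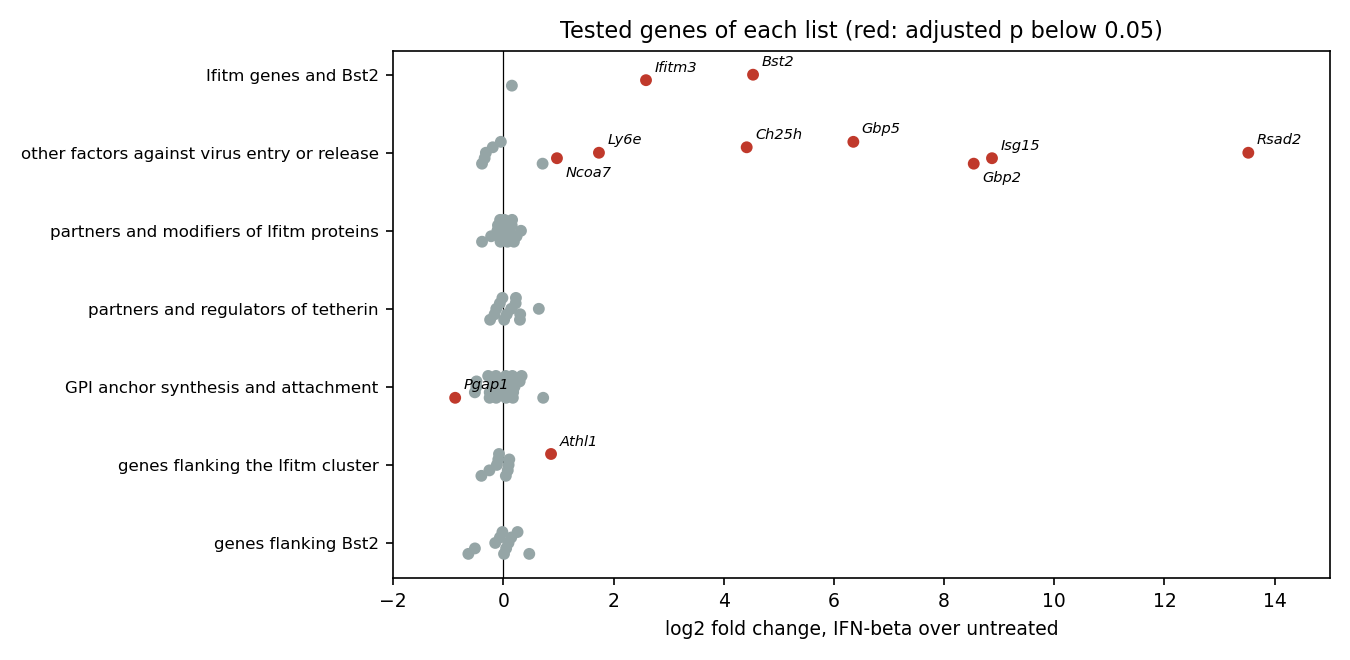
Each point is a tested gene of a list (rows), placed by its log2 fold change of IFN-beta over untreated, red where the edgeR adjusted p was below 0.05. Called genes stand in the rows of the members, of other factors against entry or release, of anchor genes (Pgap1) and of the Ifitm neighbours (Athl1). The fitted values of Rsad2 and Gbp5, with 2 pooled untreated reads each, depend on the prior count.

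In RefSeq's gene order for GRCm38.p6, Ifitm5, Ifitm2, Ifitm1, Ifitm3 and Ifitm6 follow each other on chromosome 7 with no other coding gene between them. Of 10 tested genes around this cluster 1 was called, higher, against 4.73% of all genes, and the median was -0.02. The call was Athl1, the coding gene next to Ifitm5 and an enzyme gene that acts on collagen sugars, at 14.6 ± 0.852 CPM with IFN-beta and 8.04 ± 0.973 CPM untreated (log2 fold change 0.87 ± 0.18 SE, edgeR adjusted p = 0.0212). Its call was lost with total library size (0.0501) and with IFN-beta replicate 1 (0.0554) or 2 (0.138) left out. B4galnt4, the coding gene on the other side of the cluster, was at -0.40 (adjusted p = 0.576), and the proteasome gene Psmd13 at -0.25 (adjusted p = 0.314).

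Around Bst2 on chromosome 8, 11 listed neighbours were tested and 0 were called by edgeR or by DESeq2, with 1 higher and 2 lower at an unadjusted p below 0.05 (against 9.6% and 8.56% of all genes) and a median of 0.01. On 1 side the list began at Plvap, 3 coding genes away and with too few reads to test. Nearer genes on that side were not examined. Mvb12a, the adjacent coding gene and a part of the ESCRT-I sorting complex, was at 33.1 ± 2.72 CPM with IFN-beta and 23.9 ± 0.704 CPM untreated (log2 fold change 0.47 ± 0.15 SE, edgeR adjusted p = 0.117). It passed without untreated replicate 1 (0.0114) and without untreated replicate 2 (0.0156). Abhd8 was at -0.52 (adjusted p = 0.176) and Ankle1 at -0.63 (adjusted p = 0.253). With either untreated replicate left out, Mvb12a was called higher and 1 gene lower, Ankle1 (0.0244) without replicate 1 and Abhd8 (0.000709) without replicate 2.

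The genes whose pattern over the 4 libraries was most like a member's were found by the Euclidean distance of log2 CPM, with a prior count of 2, centred on each gene's mean. For Bst2 these were Phf11a (0.17), the mono-ADP-ribosyltransferase gene Parp12 (0.21) and Oas1c (0.25). For Ifitm3 they were Myt1l (0.14), Trafd1, a zinc finger gene (0.16), and the mitochondrial phosphatase gene Ppm1k (0.18). For Ifitm2 they were the lysosomal membrane gene Laptm4a (0.029), Coq10a (0.040) and Fam171b (0.049). The prior count draws genes of few reads towards their mean, and Phf11a and Myt1l each had 1 read in either untreated library, with ratios of 78.1 (95% exact interval 21.2 to 651) and 16.3 (4.11 to 142). Log2 fold changes were 4.46 for Parp12 and 4.71 for Oas1c, next to 4.53 for Bst2. They were 2.59 for Trafd1 and 2.45 for Ppm1k, next to 2.59 for Ifitm3. Such nearness was built into the choice, since these genes were picked by their distance over the same 4 libraries.

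Because Bst2 and Ifitm genes are also marks of other cells, markers of those cells were read beside them. In mice Bst2 marks plasmacytoid dendritic cells: 0 of 8 such markers had enough reads to test, 4 had none in any library, and their summed counts were 9 and 21 with IFN-beta and 1 and 4 untreated. Pacsin1 held 7 and 16 of these reads after IFN-beta and 0 untreated, and was called higher by DESeq2 (adjusted p = 0.0209). Ccr9 had 2 and 4 reads with IFN-beta and 1 and 1 untreated, and Flt3 had 0 and 1 in each group. Siglech had 0 reads in both IFN-beta libraries and 0 and 2 untreated. Of 11 macrophage markers found, 5 were tested and 0 called, with 0 at an unadjusted p below 0.05 (edgeR) and 0 calls by DESeq2, and their sum was 22.2 and 16.4 CPM with IFN-beta and 25.0 and 19.0 CPM untreated. Bone-forming cell markers, relevant to Ifitm5, gave 0 calls among 3 tested, with 0 at an unadjusted p below 0.05, at 59.4 and 48.3 CPM in sum with IFN-beta and 39.4 and 54.5 CPM untreated. Germ cell and pluripotency markers gave 0 calls among 2 tested (2.02 and 3.53 CPM in sum with IFN-beta, 3.43 and 2.46 CPM untreated), and epithelial markers 0 among 1 (44.2 and 49.9 CPM with IFN-beta, 49.8 and 66.0 CPM untreated), with 0 at an unadjusted p below 0.05 in both lists. DESeq2 also gave 0 calls for the bone-forming, germ cell and epithelial lists. Endothelial markers summed to 3.19 and 2.17 CPM with IFN-beta and 0.988 and 1.10 CPM untreated. Of only 2 tested, 1 was called, higher, against 4.73% of all tested genes. Both were higher at an unadjusted p below 0.05, against 9.6% of all tested genes (edgeR). The call was Cdh5, with 24 and 19 reads after IFN-beta and 2 and 6 untreated (log2 fold change 2.68, edgeR adjusted p = 0.0140, but 0.0588 by DESeq2 and 0.0777 with IFN-beta replicate 1 left out), and Kdr had 32 and 20 reads after IFN-beta and 10 and 18 untreated (log2 fold change 1.18, edgeR adjusted p = 0.177). Pecam1 had 0 and 1 reads after IFN-beta and 1 and 2 untreated, and Tie1 and Emcn had none. Esam had 1 and 2 reads after IFN-beta and 0 and 1 untreated, and Erg 0 and 1 against 0 and 0. Tek had 0 and 0 reads after IFN-beta and 5 and 2 untreated, and Cldn5 0 and 0 against 1 and 0. The part of these cells in the member results was not tested.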

How the data were processed

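The authors deposited 1 table of read counts per gene symbol for each of 4 RNA-seq libraries, neither normalized nor pooled. Per the labels' protocols, total RNA from Trizol extraction went into a TruSeq RNA kit. The build was mm9 and the tools named are TopHat2 2.0.13 and HTSeq 0.7.2, per the submitters' processing notes. The annotation and strand setting are not given in the sources used here. Summary lines naming no gene were left out (57.3% to 61.3% of records). Because the strand setting is not given, reads of overlapping or antisense genes may be mixed.

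The test was edgeR 4.0.16's, run in R 4.3.3 (quasi-likelihood F test, TMM, group as the only term, minimum count 10, minimum total 15), and p-values were adjusted over all 12128 tested genes. A standard error is the log2 fold change divided by the root of F, and 95% intervals use the fit's degrees of freedom. CPM use TMM-adjusted library sizes. Ratios of low members, and of other genes with few untreated reads, pool the reads of each group. Their exact conditional binomial intervals leave out the spread between libraries. Tested on simulated data for this comparison (11912 genes), the fit called 80% of the 50 genes given a log2 change of 1. The simulation gave both groups the fit's negative binomial dispersion. It left out the further gene-by-gene spread that the quasi-likelihood test estimates. It also did not carry the wider spread of the untreated pair, so the share may be lower in the real data. The members and lists were chosen with earlier results of these data known. Named are the members, up to 3 genes of each list by p-value, the 3 genes most like each tested member. Gbp5, Ch25h, Ly6e, Ncoa7, the Serinc genes, Prrt2 and single markers were named after their values were seen. Promoter sequences come from RefSeq (GRCm38.p6), not the build of the counts, and were matched by symbol for 8 of 8 members. Alternatives were other scalings, filters, DESeq2 1.42.0, limma-voom (limma 3.58.1), a replicate block, a fit without Rn45s, Lars2 and Mir6236, and each library left out.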

Additional observations from a re-analysis of the deposited data

How the results depend on the processing

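Ifitm3 and Bst2 kept their direction and their call under all 13 alternatives run, with log2 fold changes from 2.45 to 2.73 and from 4.39 to 4.57. Ifitm2 ran from 0.01 to 0.17 with all libraries kept, and from -0.031 (without untreated replicate 2) to 0.39 when a library was left out, passing without untreated replicate 1. The median over all genes was -0.16 with total library size, against -0.02 with TMM. The count of genes called higher (574) became 863 without a count filter and ran from 470 to 1885 with a library left out, and that of lower genes (60) became 350 with total library size, 128 with upper quartile scaling, 381 without a filter and 24 to 1728 with a library left out. The cause was not tested. Without untreated replicate 2, Laptm4a turned to -0.0084 and Fam171b to -0.062, while both were at 0.40 without untreated replicate 1.

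The labels number the replicates without saying that numbers pair libraries, and deviations of same-numbered libraries correlated at -0.033, so the replicate block is an alternative only. With the block, 692 genes were higher and 155 lower, and the log2 fold changes were 0.17 for Ifitm2, 2.59 for Ifitm3 and 4.53 for Bst2. It also called Ezr (adjusted p = 0.0282), Pgap2 (0.0348) and Syndig1 (0.00675), which edgeR without the block did not.

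Leaving a library out left its group with 1, whose spread was taken to equal that of the other group. The ratio of Ifitm1 to Ifitm3 could not be computed on the log scale, since 1 library had no Ifitm1 read. Members with few reads are limited by depth, and 2 libraries a group limit every test.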
